A study of Caenorhabditis elegans with 2 samples.

Results

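The innexins are the gap junction proteins of invertebrates, and 10 genes of the family that are used in the nervous system of the worm Caenorhabditis elegans are described here by the ChIP-seq summits that lie in and upstream of them. They are unc-7, unc-9, inx-1, inx-4, inx-6, inx-7, inx-10, inx-14, inx-18 and inx-19, out of 19973 nuclear protein-coding genes. The genes were taken by name, and 9 of the 10 names stood in the annotation. No gene there is called inx-4; che-7, the current name of that innexin in worm nomenclature and annotated as an innexin by RefSeq, was taken in its place. For each gene, every summit in the gene body or in the 5000 bp upstream of the gene start was collected, and this stretch is called its region.

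The data came from chromatin immunoprecipitation followed by sequencing (ChIP-seq) on late embryos, taken whole, of hermaphrodite worms of the transgenic strain OP173. Both samples carried UNC-42 fused at its C terminus to GFP and FLAG, and were collected 3 hours after synchronisation by bleaching of eggs. The labels give 2 biological replicates of this 1 group, so there is no second condition, and no sample lacking the tag was analysed here. The antibody was directed against GFP according to the description in the labels, although their antibody entry reads unc-42.

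Innexin subunits assemble into channels in each of a pair of touching cells, and the channels dock to let ions and small molecules pass between the cells. In the nervous system they form electrical synapses. UNC-7 and UNC-9 are best known for coupling command interneurons to the motor neurons that drive locomotion, and mutants of either gene move poorly. UNC-42, the tagged protein, is a transcription factor with a paired-type homeodomain, best known for setting the fate of command interneurons.

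A summit is the base at which a peak is highest, and the signal is the value that the authors' peak caller gave to the peak. The optimal set held 4780 peaks that passed the threshold of the irreproducible discovery rate (IDR), a measure of how well the ranking of peaks repeats between replicates, with signals of 81.6 and above and a median of 138. The pooled list (23778 entries), the replicate 1 list (22676) and the replicate 2 list (20932) were relaxed and hold background as well as peaks. Rank 1 is the strongest entry of a list. Signals have a scale of their own in each list, so replicates are compared by rank. Read depth is unknown, and no value below has an error per peak. All positions are on ce11 (WBcel235), and distances are counted from the start of the gene along its strand.

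Of the 10 innexin genes, 4 had at least 1 summit of the optimal set in the region, which is 40% of them, where 27.8% of all protein-coding genes did. They were unc-7 with 8 summits, unc-9 with 6, and inx-1 and inx-19 with 2 each, 18 summits in all. The genes inx-4 (che-7), inx-6, inx-7, inx-10, inx-14 and inx-18 had none. The genes unc-7 and unc-9 thus held 14 of the 18 summits. As embryos were taken whole, the cells in which a site was occupied cannot be told apart.

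The gene unc-7 (X, 15120846 to 15147740, minus strand) is long, with 26895 bp and 10 different annotated transcript starts. Of its 8 summits, 1 lay upstream and 7 in introns. The strongest lay 19385 bp into the gene with a pooled signal of 274 at rank 620, and the replicates gave it ranks 767 (signal 113) and 521 (signal 163). Its sequence carried a GA repeat close to the summit. The next, 12578 bp into the gene, had a pooled signal of 211 at rank 1121, with replicate ranks of 1365 and 1090. A close pair at 22366 bp (signal 187, rank 1446) and 22099 bp (signal 173, rank 1662) stood 267 bp apart. This pair ranked 1748 and 2967 in the replicate 1 list, against 1112 and 1068 in the replicate 2 list.

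Weaker summits of unc-7 lay at 14370 bp (signal 150, rank 2117) and 17165 bp (signal 130, rank 2624). The upstream summit, 1242 bp before the gene start, had a signal of 95.4 at rank 4011. The weakest, at 8393 bp, had a signal of 84.4 at rank 4619 and stood just above the limit of the optimal set. Both of these last summits were within the first 4780 entries of 1 replicate list and just beyond them in the other, at ranks of 3321 and 5003 for the upstream one and 5405 and 4778 for the intronic one. The strongest summits of unc-7 thus lay deep inside the gene, and the upstream one was among its weakest.

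The annotated internal transcript starts of unc-7 offer a closer reference point for several of these summits. The summit at 22366 bp lay 74 bp inside transcript R07D5.1b.1, and its neighbour lay 193 bp upstream of the same transcript start. That neighbour, at 22099 bp, also stood inside the annotated non-coding RNA gene R07D5.8. The summit at 12578 bp lay 489 bp upstream of the start of R07D5.1g.1, and the strongest lay 605 bp upstream of that of R07D5.1a.2. Over the 4 genes, 6 of the 18 summits lay within 500 bp of a transcript start of their own gene, 3 of them in unc-7. Counted against the transcript starts of any protein-coding gene, 6 of the 18 lay within 500 bp as well, beside 38.8% of all optimal summits. With 18 summits, no difference can be read from these shares. The 10 starts of unc-7 are spread over its length.

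The following windows of 201 bases, centred on summits of unc-7, show the strongest site, a site with a homeodomain core near its centre and the upstream site. They are read from the RefSeq sequence of WBcel235 on the minus strand, which is the strand of the gene, and capitals mark TAATTA or a GA repeat.
unc-7 summit at 19385 bp, chrX:15128255-15128455: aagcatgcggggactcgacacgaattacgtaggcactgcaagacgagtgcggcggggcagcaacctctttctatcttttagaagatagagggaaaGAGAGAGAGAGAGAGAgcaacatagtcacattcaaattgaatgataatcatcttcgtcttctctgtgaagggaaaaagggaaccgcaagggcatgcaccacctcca
unc-7 summit at 14370 bp, chrX:15133270-15133470: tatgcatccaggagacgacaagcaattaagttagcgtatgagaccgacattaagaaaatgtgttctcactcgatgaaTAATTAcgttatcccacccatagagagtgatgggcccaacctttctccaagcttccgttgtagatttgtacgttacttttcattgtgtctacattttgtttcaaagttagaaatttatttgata
unc-7 summit at 1242 bp upstream, chrX:15148882-15149082: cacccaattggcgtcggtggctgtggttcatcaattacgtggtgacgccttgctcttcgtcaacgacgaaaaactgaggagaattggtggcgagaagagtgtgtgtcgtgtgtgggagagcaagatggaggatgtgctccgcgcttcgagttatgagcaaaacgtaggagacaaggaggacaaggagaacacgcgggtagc

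The first window held a run of 16 bases of GA repeat, the longest among the 18 windows. The second held TAATTA, a core that many homeodomains are known to bind, a little ahead of the summit base. The third held neither, and it was the window richest in G and C of the 18, at 53.7%.

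The gene unc-9 (X, 13201770 to 13216729, plus strand) holds 14960 bp, and 4 of its 6 summits lay upstream of the gene start and 2 in intronic sequence ahead of all coding exons. The 2 summits with the highest signal lay 8902 bp into the gene (217 at rank 1065, with replicate ranks of 884 and 1236) and 183 bp upstream of the start (203 at rank 1217, with replicate ranks of 1792 and 975). The other upstream summits lay at 1640 bp (signal 194, rank 1344), 3429 bp (signal 169, rank 1733) and 2742 bp (signal 123, rank 2860). All 5 were within the first 4780 entries of both replicate lists. The sixth, 7355 bp into the gene, had a signal of 82.8 (rank 4704). The replicate 1 list held it at rank 4034, but the replicate 2 list had no entry within 100 bp, the closest being 7251 bp into the gene at rank 6714.

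The upstream summits at 1640 and 3429 bp stood inside the annotated non-coding RNA genes F09D5.6 and F09D5.3, and the other upstream ones were intergenic. The summit at 8902 bp lay 1718 bp upstream of the transcript start R12H7.1a.1, which begins just ahead of the first coding exon. It was nearer to the gene start of R12H7.4 (6430 bp) than to that of unc-9, although it lay within the unc-9 gene body alone.

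The windows of unc-9 shown are those of both strongest summits and that of the weakest, which holds a GA repeat. They are on the plus strand of WBcel235, the strand of the gene, with capitals as before.
unc-9 summit at 183 bp upstream, chrX:13201487-13201687: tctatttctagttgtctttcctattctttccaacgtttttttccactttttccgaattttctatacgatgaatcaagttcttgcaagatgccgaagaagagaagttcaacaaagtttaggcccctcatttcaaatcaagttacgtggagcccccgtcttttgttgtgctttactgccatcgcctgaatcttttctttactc
unc-9 summit at 8902 bp, chrX:13210572-13210772: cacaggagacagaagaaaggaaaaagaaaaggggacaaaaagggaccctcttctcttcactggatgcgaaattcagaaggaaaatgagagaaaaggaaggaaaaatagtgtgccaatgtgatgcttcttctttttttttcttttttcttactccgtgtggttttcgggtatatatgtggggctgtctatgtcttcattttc
unc-9 summit at 7355 bp, chrX:13209025-13209225: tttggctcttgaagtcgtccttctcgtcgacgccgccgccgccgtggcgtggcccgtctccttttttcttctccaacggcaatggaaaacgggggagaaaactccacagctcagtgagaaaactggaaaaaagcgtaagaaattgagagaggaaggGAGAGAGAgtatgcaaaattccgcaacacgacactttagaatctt

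The windows of the 2 strongest summits of unc-9 lacked TAAT, the shorter homeodomain site, on either strand. The third held a GA run of 8 bases and no TAAT.

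**Figure D1:**
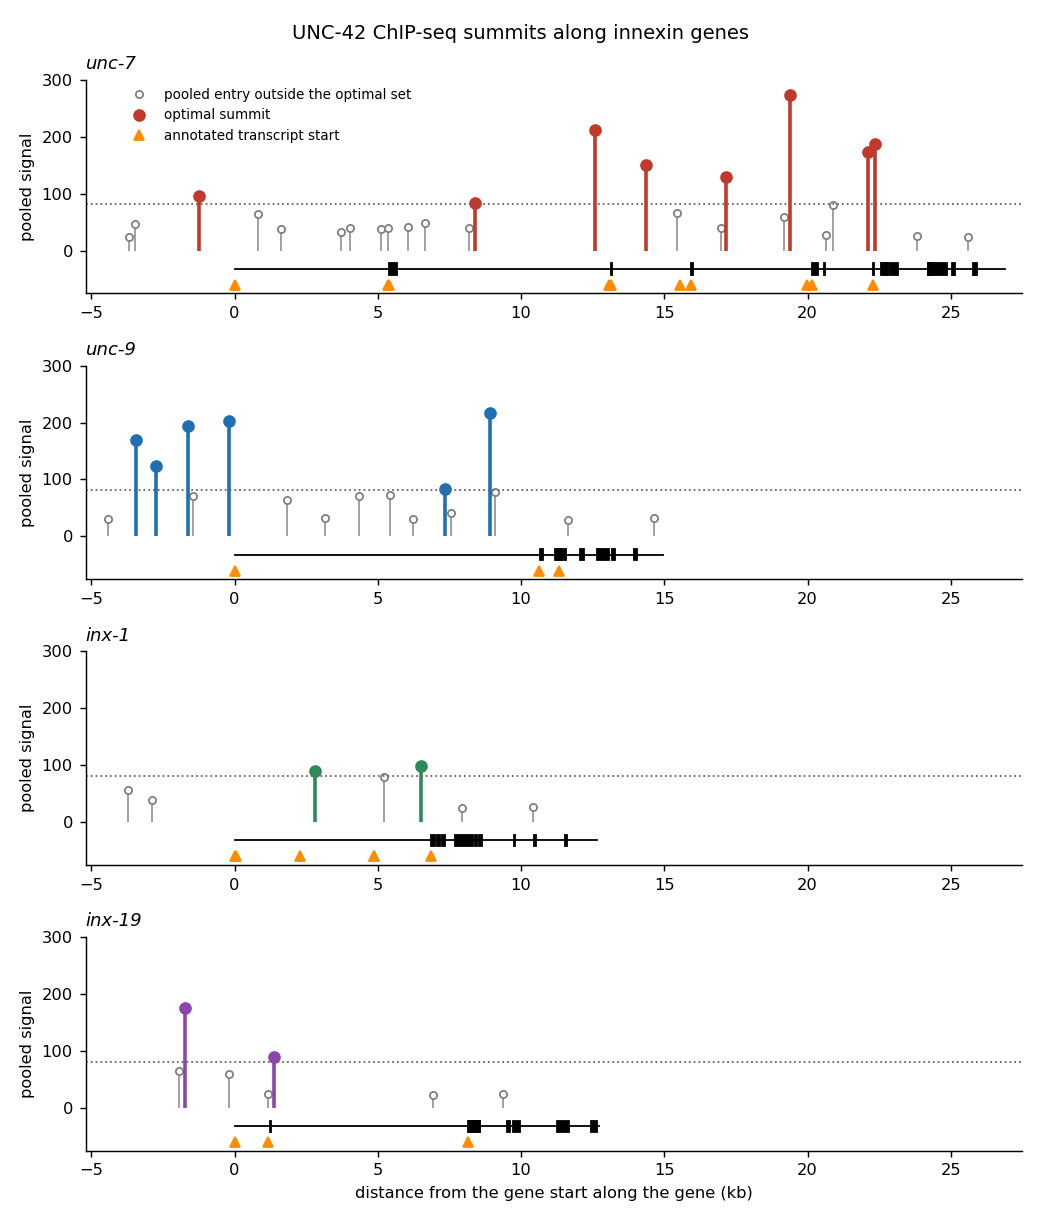
Pooled signal (vertical axis, the authors' scale) of every pooled entry in the regions of unc-7, unc-9, inx-1 and inx-19, against distance from the gene start (kb, along the strand of each gene). Filled points are the 18 optimal summits, open points are weaker pooled entries, black boxes are coding exons, triangles are annotated transcript starts and the dotted line is the lowest optimal signal, 81.6. The summits of unc-7 reach 274 inside the gene, whereas 4 of the 6 of unc-9 lie upstream of its start.

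The third gene, inx-1 (X, 6943735 to 6956399, minus strand), encodes a further neuronal innexin. Its 2 summits were intronic and weak, at 6523 bp (signal 99.1, rank 3822) and 2819 bp (signal 90.5, rank 4281). The first of these ranked 4053 and 4319 in the replicate lists. The second ranked 4070 in the replicate 1 list, while its nearest entry in the replicate 2 list ranked 9346, at a distance of 83 bp. A stronger replicate 2 entry, at rank 3988, lay 2938 bp into the gene, outside the 100 bp allowed for a match. Each summit stood inside an annotated non-coding RNA gene within the intron, C16E9.14 for the first and C16E9.12 for the second.

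The window of the second summit of inx-1 is shown because TAATTA lies near its centre, on the minus strand of WBcel235, which is the strand of the gene.
inx-1 summit at 2819 bp, chrX:6953480-6953680: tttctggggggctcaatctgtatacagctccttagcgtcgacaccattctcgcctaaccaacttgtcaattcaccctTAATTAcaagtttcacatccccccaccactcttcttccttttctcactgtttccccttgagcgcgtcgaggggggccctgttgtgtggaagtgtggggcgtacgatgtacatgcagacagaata

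A further site in inx-1, 5210 bp into the gene, had a pooled signal of 79.5 at rank 4937 and fell just short of the optimal set. Among the pooled entries outside the set it was the strongest in any of the 10 regions. The next were a site 20875 bp into unc-7 at rank 4945 and one 9102 bp into unc-9 at rank 5001.

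None of the 18 summits lay in the region of another protein-coding gene, but how often this holds among all optimal summits was not computed. For 5 of the 18, all in gene bodies, the start of another gene was nearer than that of the innexin. Of these, 4 were in unc-7, with R07D5.2 as the nearer start at 8760 to 13961 bp, and 1 in unc-9. By annotation 12 of the 18 summits were intronic (66.7%), 4 intergenic and 2 inside a non-coding RNA gene only. With those in introns included, 5 of the 18 stood inside a non-coding RNA gene. The share of all optimal summits inside such genes was not computed, so this count has no reference. Among all optimal summits 28.2% were intronic. That share covers summits anywhere in the genome, whereas the 18 were taken from the bodies and upstream stretches of 4 long genes. The intronic shares are therefore not from like sets.

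The fourth gene was inx-19, also known as nsy-5, which is known for the coupling of embryonic neurons that sets the left-right difference between both AWC olfactory neurons. It lies on chromosome I (2451898 to 2464618, minus strand). Its stronger summit was intergenic, 1734 bp upstream of the gene start, with a signal of 175 at rank 1630 and replicate ranks of 2096 and 1412. The weaker lay in an intron 1383 bp into the gene with a signal of 89.5 at rank 4331, and it lay 226 bp inside transcript T16H5.1a.1. Its replicate ranks of 4834 and 4245 put it just outside and just inside the first 4780 entries.

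Across the 18 summits, the median signal was 160, against 138 for all optimal summits. Ranks 1 to 2390, the stronger 50% of the optimal set, held 10 of the 18, of which 9 belonged to unc-7 and unc-9. The first 1000 of the 4780 ranks held only 1 of the 18. In the first 4780 entries of both replicate lists stood 13 of the 18 (72.2%), where 76.8% of all optimal summits did, and the other 5 stood in those of 1 replicate. The matched replicate summits lay at most 83 bp away, with medians of 8 bp in replicate 1 and 21 bp in replicate 2. Over the 17 summits with a match in both lists, the ranks had a Spearman correlation of 0.76, given as a description, since all 17 come from the same 2 libraries and had passed the IDR threshold.

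Replicates ranked unc-7 and unc-9 unequally. All 8 summits of unc-7 were matched in both lists, and 7 of them stood higher in the replicate 2 list. Of the 5 summits of unc-9 matched in both, 1 stood higher in that list. Over all optimal summits matched in both lists, 51% stood higher in the replicate 2 list. Summits within a gene share their surroundings and are not independent of each other.

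**Figure D2:**
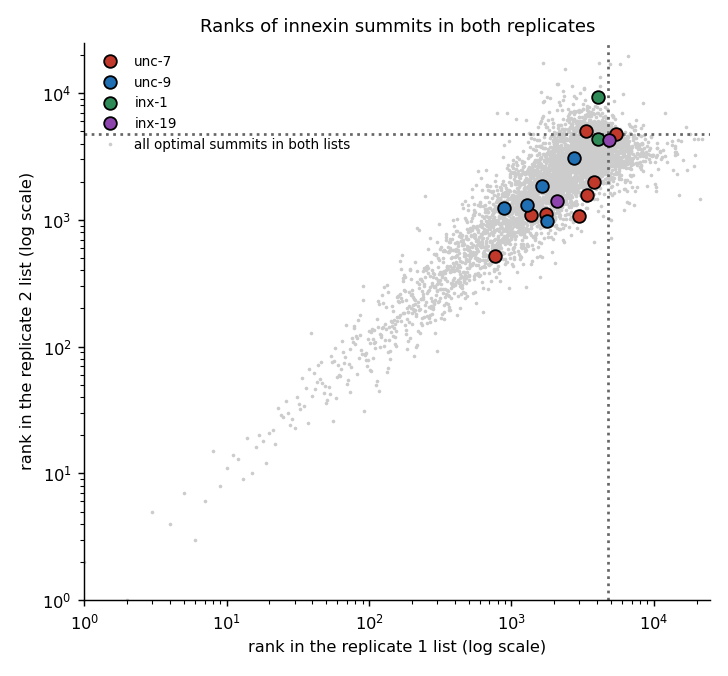
Rank of each innexin summit in the replicate 1 list (horizontal axis, log scale) and the replicate 2 list (vertical axis, log scale), for the 17 summits matched within 100 bp in both lists. Coloured points are summits of the 4 genes, grey points are all optimal summits matched in both lists, and dotted lines stand at rank 4780. The innexin summits lie within the grey cloud, and that of inx-1 at ranks 4070 and 9346 lies past the dotted line of replicate 2.

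The 6 genes without an optimal summit differed in how close they came. For inx-10 (V, 9204661 to 9207477, minus strand), the strongest pooled entry lay 1701 bp upstream with a signal of 75 at rank 5287, below the lowest optimal signal of 81.6. Replicate 1 gave it rank 4896, and the strongest replicate 2 entry in the region had rank 6169. For inx-7 (IV, 5943981 to 5946638, minus strand), the strongest entry lay 1298 bp upstream with a signal of 59.7 at rank 6827. For inx-18 (IV, 606355 to 614062, plus strand), an innexin known to act with inx-19 in sensory neurons, it lay 824 bp upstream with a signal of 54.7 at rank 7570. In the replicate lists the inx-7 site stood at ranks 6179 and 11739, within 100 bp of the pooled entry, and the inx-18 site stood at rank 5935 in replicate 2. Replicate 1 had no entry within 100 bp of the inx-18 site. Its strongest entry in that region lay 663 bp upstream at rank 9045. All of these lists are relaxed and hold background.

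The remaining genes had less. For inx-6 (IV, 12746584 to 12749721, plus strand), known for coupling pharyngeal muscle cells and for its use in neurons of the dauer larva, the strongest pooled entry lay 2855 bp upstream with a signal of 39.1 at rank 11531. The regions of inx-14 (I, 7350309 to 7352235, minus strand), which is also known for its role in germline gap junctions, and of che-7 (V, 7961210 to 7969207, minus strand) held no pooled and no replicate 1 entry. Each held 1 entry of the replicate 2 list, at rank 20669 of 20932 for inx-14 and 16533 for che-7.

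Region length went with the presence of a summit. The 4 genes with one had the longest regions of the 10, between 17665 and 31895 bp, and the other 6 had regions of 6927 to 12998 bp. Among all protein-coding genes, 60.8% of those with regions as long as the first 4 had an optimal summit, and 30.6% of those with regions as long as the other 6. These length classes were chosen after the values were seen. In gene bodies alone, the same 4 of 10 innexins had a summit, against 5.44% of all protein-coding genes and 39.1% of those with bodies of the same length as the 4. How much of the count is due to gene length was not tested.

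The number of summits in unc-7 and unc-9 was less common. Of all protein-coding genes 39 had 6 or more optimal summits (0.195%), and 12 had 8 or more. Among the 408 genes with regions at least as long as that of unc-9, 5.15% had 6 or more. The limits of 6 and 8 summits and this length are the values of unc-9 and unc-7 themselves. These shares are therefore descriptions and not an independent comparison. The densities were 2.51 summits per 10 kb of region in unc-7, 3.01 in unc-9, and 1.13 in each of inx-1 and inx-19, against 0.477 per 10 kb over the whole genome and 0.591 over chromosome X. In the pooled list, which includes background, unc-7 had 8.15 entries per 10 kb and unc-9 had 8.52, against 2.37 over the genome. All 3 members on X had an optimal summit, where 30.8% of the protein-coding genes on X of any length did. These 3 have long regions, of the lengths at which 60.8% of all protein-coding genes had one. Of the other 7 members 1 had an optimal summit, where 27.8% of protein-coding genes over all chromosomes did. With so few genes, no difference between X and the other chromosomes can be read from these counts.

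**Figure D3:**
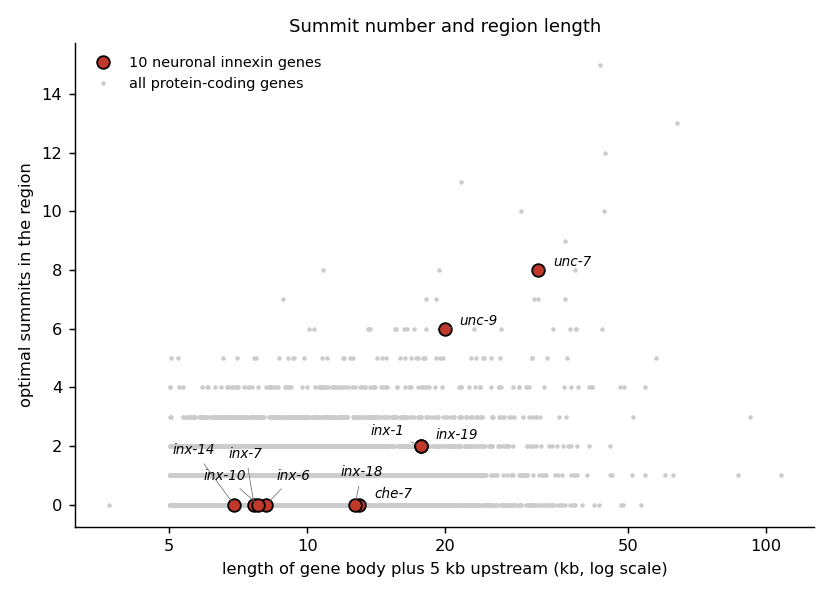
Number of optimal summits in the region (vertical axis) against the length of the region, gene body plus 5 kb upstream (horizontal axis, kb, log scale). Red points are the 10 innexin genes and grey points all protein-coding genes. The genes unc-7, with 8 summits, and unc-9, with 6, stand above most genes of their length, and the 6 innexin genes at 0 have the shortest regions of the 10.

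Between 5000 and 10000 bp upstream of the 10 genes lay 9 more optimal summits, 8 of them nearer to the start of another gene. Within the limit, the farthest upstream summit was that of unc-9 at 3429 bp. Beyond it, the nearest was 5074 bp upstream of inx-1 (signal 95.1, rank 4025). The next stood 5247 bp upstream of inx-10 in an intron of mdt-27, with a signal of 420 (rank 186) and 930 bp from the start of that gene. A strong one, with a signal of 656 at rank 44, stood 6421 bp upstream of inx-7, in intergenic sequence whose nearest start was that of the ribosomal protein gene rps-25. A summit 7520 bp upstream of unc-7 had a signal of 368 at rank 283, stronger than any inside the unc-7 region, with C11G10.1 as the nearest start.

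The other 15 innexin genes of the worm were examined in the same way. They are inx-2, inx-3, inx-5, inx-8, inx-9, inx-11, inx-12, inx-13, inx-15, inx-16, inx-17, inx-20, inx-21, inx-22 and eat-5, many of them known from other tissues. Of these 15, 2 had an optimal summit, and each had 1, where 27.8% of all protein-coding genes had one. Whether the 15 differ from the 10 neuronal genes was not tested. That of eat-5, a pharyngeal innexin, had a signal of 236 at rank 876, but it lay 2572 bp upstream and only 208 bp from the start of F13G3.10. That of inx-2 had a signal of 124 at rank 2840 and lay 3033 bp upstream, in the 5' UTR of snrp-40.1, 18 bp from the start of that gene. Neither of these summits had the innexin as its nearest gene start. A further 8 of the 15 regions had no entry in the pooled list, and 3 had none in any list. How many of all protein-coding genes lack such entries was not computed, so these counts have no reference. The regions of the 15 genes were short, between 6727 and 11376 bp.

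Known partners of the neuronal channels were unequal too. The stomatin-like protein UNC-1 is required for channels of UNC-9 to work, and unc-1 (X, 1057487 to 1062453, minus strand) had 4 optimal summits. The strongest lay 405 bp upstream with a signal of 361 at rank 297 and replicate ranks of 359 and 274. The others lay 4445 bp into the gene and nearer to the start of ncs-3 (304, rank 466), 1781 bp upstream (250, rank 758) and 1480 bp into the gene (148, rank 2147). The highest optimal signal in any of the 10 innexin regions, for comparison, was 274. The adhesion gene nlr-1, known for its role in gap junction formation, had no entry in any list. The claudin-like gene nsy-4, which acts beside inx-19 in AWC asymmetry, had no optimal summit, and its strongest pooled entry had a signal of 47 at rank 9064.

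**Figure D4:**
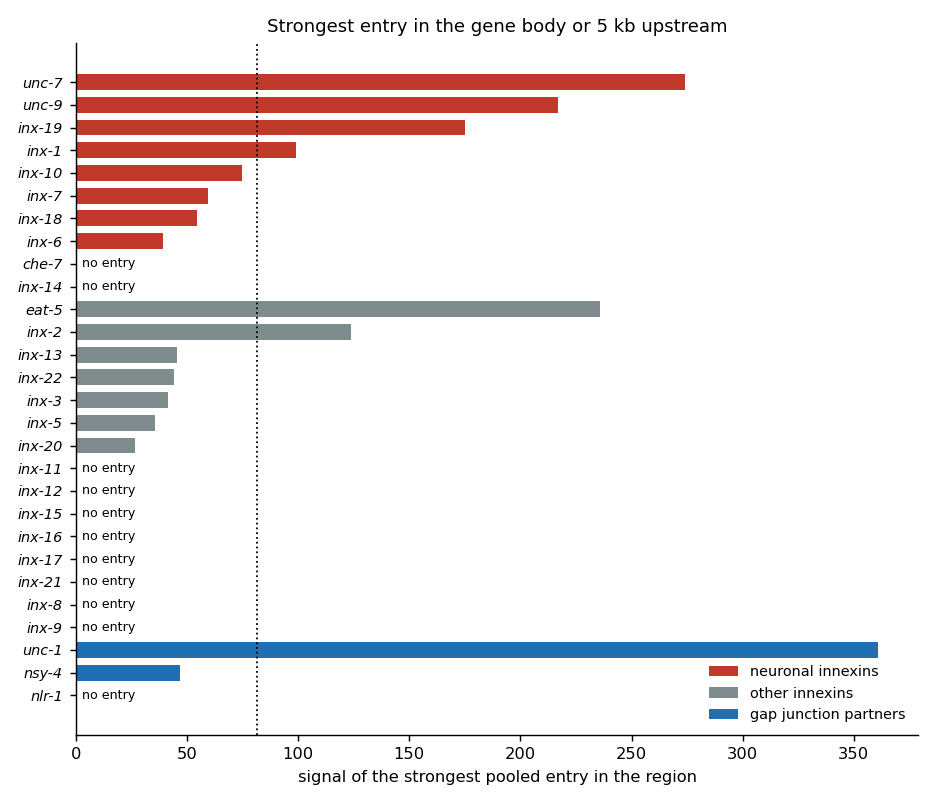
Signal of the strongest pooled entry in the gene body or 5 kb upstream (horizontal axis, the authors' scale) for each of the 10 neuronal innexins, the 15 other innexins and the 3 partners. The dotted line is the lowest signal of the optimal set, 81.6. The bars of unc-7, unc-9, inx-19 and inx-1 pass it, as do those of eat-5, inx-2 and unc-1.

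The sequences under the 18 summits were then compared with those under all optimal summits, in windows reaching 100 bp to each side and on both strands. The core TAATTA lay in 4 of the 18 windows (22.2%), against 10.9% of all, and in 5 of 18 (27.8%) against 19.9% when the windows reached 200 bp. The 4 were the windows at 14370 bp in unc-7, at 2819 bp in inx-1 and both windows of inx-19. The paired site TAATNNNATTA, made of facing TAAT sites 3 bases apart, lay in 0 of 18, against 1.88% of all. A count of 18 windows is too small to read a difference from such a rare word. The shorter TAAT, added after the other counts were seen, lay in 13 of 18 windows (72.2%), against 76.0% of all.

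The shares of the GA repeat and of GATA were close to those of all optimal summits, while those of TATAAA and the E-box lay farther apart in these windows. The GA repeat GAGAGAGA lay in 2 of 18 (11.1%), against 11.7% of all, and the letters GATA in 12 of 18 (66.7%), against 61.8%. The word TATAAA lay in 5 of 18 (27.8%), against 12.5% of all. With 50 bp to each side it lay in 4 of 18 (22.2%), against 5.44%. With 200 bp to each side it lay in 7 of 18 (38.9%), against 30.6%. The E-box CANNTG lay in 3 of 18 (16.7%), against 55.4% of all, and in windows of 200 bp to each side in 10 of 18 (55.6%), against 77.9%. The GC content of the 18 windows ran between 30.8 and 53.7% with a median of 43.3%, against a median of 41.8% over all optimal summits. Such matches are descriptions of letters in a window and do not mark sites of binding.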

How the data were processed

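The deposited peak lists in narrowPeak format on ce11 were used: the optimal IDR set, the relaxed pooled list and both relaxed replicate lists. Per the deposited text that accompanies them, the replicate lists and the pooled list were made against 1 control file, and the optimal set was derived from all 3. Names of aligner and peak caller were not given in the sources used here. The signal of each peak is the authors' own value, used as deposited to rank peaks within a list. The depth is unknown.

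Summits were taken as peak start plus the deposited offset, given 1-based. Gene models came from Ensembl release 115 (WBcel235, the assembly of ce11), sequences and the innexin product of che-7 from RefSeq. Summits within 100 bp counted as the same site. Counting functions, in Python 3.11.15 with pandas 2.3.3, were tested on simulated summits. All members are named, with any gene holding a summit or nearest to it. The members, lists and motifs were chosen with earlier results of these data known. No test was made, since there is 1 group. The ce10 lists were not used.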

Additional observations from a re-analysis of the deposited data

How the results depend on the processing

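The count of 4 members with a summit did not change with an upstream limit of 2000 bp (19.6% of all protein-coding genes), gene bodies alone (5.44%), summits nearest to the member's own start, che-7 left out (an alternative chosen after seeing the data), or either replicate alone. It was 8 with a limit of 10000 bp, against 38.4% of all protein-coding genes, and 3 among ranks 1 to 2390 of the optimal set, where inx-1 had none. No share of all genes is given for those ranks, for summits nearest to the own start or for single replicates. The member counts at these settings therefore cannot be set against all genes. The 18 summits became 10 among those ranks, and 17 without replicate 1 or 23 without replicate 2, each over the first 4780 entries of the remaining list. The 15 other innexins had 0 with a summit at 2000 bp, 0 in gene bodies and 5 at 10000 bp, beside the same shares of all genes. The rank of the strongest inx-1 summit, 3822 in the pooled list, was 4053 to 4319 in single replicates. In windows of 50 bp to each side, TAATTA lay at 2 of 18 summits (6.21% of all optimal summits), the GA repeat at 1 (6.44%), GATA at 7 (37.3%) and the E-box at 0 (34.8%), and in windows of 200 bp the E-box lay at 10 (77.9%). The other 36 of 48 recomputed values stayed within 1.5 times the first or, for ranks, within the spread between replicates. No paired analysis was possible because there is 1 group.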
